A study of Mus musculus with 2 samples.

Results

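The core pluripotency factors and their close partners were examined in mouse embryonic stem cells (ESCs) with and without G9a. The group comprises 8 genes, *Pou5f1*, *Sox2*, *Nanog*, *Sall4*, *Nr0b1*, *Utf1*, *Lin28a* and *Tcl1*. Its members are all probe sets to which the platform annotation gives one of these symbols alone, which are 12 probe sets for 8 of the 18194 genes named on the array. One array was made of WT ESCs of the TT2 line, derived from an F1 embryo of a C57BL/6 female and a CBA male. The other was made of G9a-KO ESCs, TT2 cells that lack exons 26 and 27 of the gene *Ehmt2*, which encode the catalytic core of G9a, a methyltransferase for lysine 9 of histone H3. Per the labels, the knockout line carried a mutant and a floxed allele before Cre acted, and both samples bear the same text of 800 nM 4-hydroxytamoxifen for 48 h and 48 h without it. It is not stated separately whether the drug was given to the WT cells. In the study's methods the knockout cells appear as an established null line kept on inactivated embryonic fibroblasts, and how the allele was lost and whether feeders were present is thus not settled.

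Pluripotency in ESCs rests on a small set of DNA-binding proteins that bind enhancers together and keep up their own genes. OCT4 (encoded by *Pou5f1*) and SOX2 bind side by side to joint POU and SOX elements, and NANOG, a homeodomain protein, and SALL4, a zinc finger protein, occupy many of the same sites. Around this core stand DAX1 (*Nr0b1*), a nuclear receptor without a classical DNA-binding domain that binds OCT4, and UTF1, a chromatin-bound protein of undifferentiated cells. LIN28A is an RNA-binding protein that blocks the maturation of let-7 microRNAs, and TCL1 is an adaptor that promotes the activity of the kinase AKT.

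The comparison asks how the transcripts of these genes differ when G9a is absent. Values are log2 levels relative to the 75th percentile of all probe sets of the same array, and each difference is G9a-KO minus WT. With 1 array per group the spread between cultures is unknown, which limits the precision, and no p-value was computed. As these are bulk samples, fewer cells that express a gene and less RNA per cell cannot be told apart. As a measure of part of the technical spread, the 18 hybridization control probe sets, which read RNA added to each sample, differed by -0.16 to 0.21 between the arrays (SD 0.11). They were added before hybridization, so they carry neither the spread of labelling nor that between cultures. *Ehmt2* itself was lower in G9a-KO by its brighter probe set, from 2.05 in WT to 0.51 in the knockout. Its other probe set lay near the median of each array, at -2.27 in WT and -2.07 in the knockout, and differed by 0.20. The position of these probe sets relative to the deleted exons was not examined here, so they do not check the label.

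To show the sequence around the start sites of the genes that the results turn on, RefSeq promoter windows were read for *Nanog*, whose transcript differed little, and for *Nr0b1*, *Lin28a* and *Tcl1*, which differed most. Each window runs from 250 bases before to 50 bases after an annotated start and is written 5′ to 3′ on the strand of the gene. Capitals mark matches on either strand to a POU core (TTTGCAT, or ATGCAAA on the other strand) or a SOX core (ACAATG, or CATTGT on the other strand).
Nanog promoter window (GRCm38.p6, chr6:122707239-122707538, plus strand): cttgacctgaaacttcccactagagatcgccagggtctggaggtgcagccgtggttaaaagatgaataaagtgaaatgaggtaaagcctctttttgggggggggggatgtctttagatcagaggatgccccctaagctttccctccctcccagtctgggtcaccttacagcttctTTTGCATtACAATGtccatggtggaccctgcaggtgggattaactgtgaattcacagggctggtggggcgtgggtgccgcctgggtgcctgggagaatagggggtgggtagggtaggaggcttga
Nr0b1 promoter window (GRCm38.p6, chrX:86191525-86191824, plus strand): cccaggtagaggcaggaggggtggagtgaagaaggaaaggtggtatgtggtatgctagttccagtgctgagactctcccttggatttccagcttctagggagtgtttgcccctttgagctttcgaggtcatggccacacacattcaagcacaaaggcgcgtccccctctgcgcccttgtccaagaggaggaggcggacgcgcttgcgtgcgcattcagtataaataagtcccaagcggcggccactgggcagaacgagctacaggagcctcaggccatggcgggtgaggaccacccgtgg
Lin28a promoter window (GRCm38.p6, chr4:134018767-134019066, minus strand): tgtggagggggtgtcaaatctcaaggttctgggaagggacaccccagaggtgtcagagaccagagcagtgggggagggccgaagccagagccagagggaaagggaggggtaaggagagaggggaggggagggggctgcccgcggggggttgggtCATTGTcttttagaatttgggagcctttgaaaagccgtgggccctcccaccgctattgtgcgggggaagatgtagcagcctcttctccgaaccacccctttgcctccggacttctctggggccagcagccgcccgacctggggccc
Tcl1 promoter window (GRCm38.p6, chr12:105222688-105222987, minus strand): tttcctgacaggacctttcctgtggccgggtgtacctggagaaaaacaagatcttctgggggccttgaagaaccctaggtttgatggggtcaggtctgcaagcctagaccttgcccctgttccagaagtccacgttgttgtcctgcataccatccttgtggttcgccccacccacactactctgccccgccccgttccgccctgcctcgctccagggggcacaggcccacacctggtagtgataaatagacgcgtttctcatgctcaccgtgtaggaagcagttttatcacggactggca
In the *Nanog* window printed both cores stand next to each other with 1 base between them. The POU core starts 75 bases before the start site of this window and the SOX core 67 bases before it. From the start site of the other *Nanog* window, the same cores lie 151 and 143 bases upstream. The spacing was read from *Nanog* itself, so its presence there is no finding. In the same arrangement the pair was found in 2 of 32851 windows of the mouse table, both of them alternative windows of *Nanog* that overlap and hold the same site. Only exact matches to both cores at this spacing were counted, so the rarity of the pair elsewhere is no finding either. Alone, the POU core was held by 4.63% and the SOX core by 12.6% of these windows. Across the 9 windows of the 7 genes matched, the POU core was found in 3 (1 of *Sox2*, 2 of *Nanog*) and the SOX core in 4 (1 of *Pou5f1*, 2 of *Nanog*, 1 of *Lin28a*). As the windows of *Nanog* share their site, these counts hold it more than once and are not to be set against the shares above. The windows of *Nr0b1* and *Tcl1*, with 14 and 11 CpG sites, held neither core, against a median of 7 CpG sites over all windows (quartiles 3 and 20). Neither core was found in the window of *Utf1* (17 CpG sites) or the other window of *Pou5f1* (11), and the window of *Sox2* had 27 CpG sites. A match is only a run of letters and no evidence of binding. *Sall4* was not matched.

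Of the 8 genes, 5 were lower in G9a-KO past 1.3-fold when any of their probe sets could decide, namely *Pou5f1*, *Sall4*, *Utf1*, *Lin28a* and *Nr0b1*. Among all 18194 genes 22.0% passed in this direction. *Tcl1* was over 1.3-fold higher, as were 24.6% of all genes. *Sox2* and *Nanog* stayed within the threshold. At 2-fold, *Nr0b1* and *Lin28a* remained lower and *Tcl1* higher, against 5.25% and 6.23% of all genes. Since genes that are well detected pass more often, the counts may also be read against the 11566 genes whose brightest probe set lay above the median on both arrays, as that of every member did. Of these, 28.4% were lower and 29.5% higher at 1.3-fold, and 6.48% and 7.30% at 2-fold. The median difference of the 8 genes, by the brightest probe set of each, was -0.53, beside 0.036 over all genes.

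**Figure D1:**
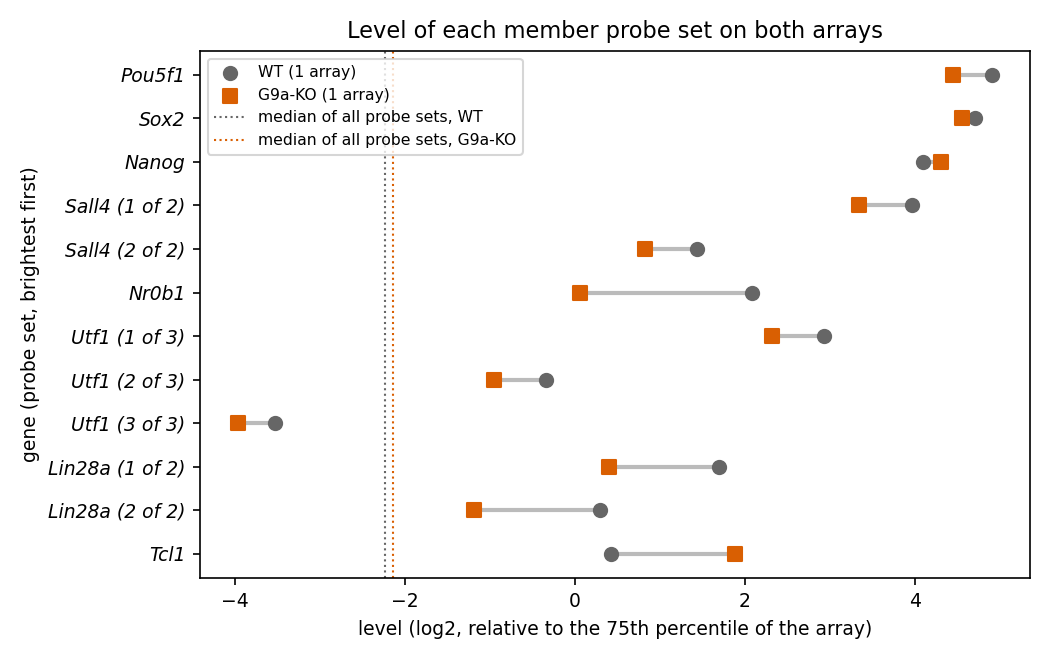
Level of each of the 12 probe sets (horizontal axis, log2 with the 75th percentile of each array at 0) on the WT array (grey circles) and the G9a-KO array (orange squares), with the median of all probe sets of each array as a dotted line. The knockout lies to the left of WT for each probe set except those of *Nanog* and *Tcl1*, and the third probe set of *Utf1* is the only one below the medians.

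*Pou5f1*, *Sox2* and *Nanog* had the smallest differences of the 8 genes. *Pou5f1* stood at 4.91 in WT and 4.45 in G9a-KO, a difference of -0.46, so that the knockout held 72.9% of the WT signal. *Sox2* stood at 4.71 in WT and 4.56 in G9a-KO, a difference of -0.15. *Nanog* stood at 4.10 in WT and 4.31 in G9a-KO and was thus the only DNA-binding member with the higher value in the knockout, with a difference of 0.21. Without replicates it cannot be said whether differences of this size exceed the spread between cultures. On either array, all 3 transcripts lay far above the median probe set.

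*Sall4* had the lowest difference of the core. Its brighter probe set read 3.97 (WT) and 3.35 (G9a-KO), and the second, an _s_at probe set of the kind that can bind several transcripts, read 1.44 and 0.82. The differences were -0.62 and -0.61, or 1.54-fold and 1.53-fold lower. The difference of *Sall4* was 0.16 below that of *Pou5f1* on the log2 scale.

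Among the cofactors, *Nr0b1* had the lowest difference of all members. It stood at 2.08 in WT and 0.062 in G9a-KO, a difference of -2.02 (4.04-fold lower), leaving 24.7% of the WT signal. Of all 18194 genes, 62 had a lower difference. *Nr0b1* is measured by 1 probe set here, so no second probe set bears on this value.

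*Utf1* was lower as well, by about as much as *Sall4*. Its brightest probe set stood at 2.93 in WT and 2.32 in G9a-KO, the next at -0.34 and -0.95, and the third, an _x_at probe set below the median of each array, at -3.53 and -3.96. The differences were -0.61, -0.61 and -0.43, all in the same direction, and the last of them is near background and its size is not exact.

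*Lin28a* was lower by both of its probe sets. The brighter one stood at 1.69 in WT and 0.40 in G9a-KO, a difference of -1.29 (2.45-fold lower), and the other at 0.30 and -1.19, a difference of -1.48 (2.80-fold lower). Of all genes, 335 had a lower difference than the brighter probe set of *Lin28a*.

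*Tcl1* was the only member past the threshold in the upward direction. It stood at 0.43 in WT and 1.88 in G9a-KO, a difference of 1.46 (2.75-fold higher), and 409 of all genes had a higher one. This gene too has 1 probe set here. Between *Tcl1* and *Nr0b1* the differences lay 3.47 apart on the log2 scale, a gap that no shift of a whole array can alter.

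Agreement between probe sets of the same gene gives a further view of the error. There were 5371 genes for which more than 1 probe set exceeded the median on either array. Among them, the lowest and highest difference within a gene lay a median of 0.34 apart (quartiles 0.15 and 0.70), and in 34.4% of them the probe sets ran in opposite directions. The gaps were 0.0074 for *Sall4*, 0.0048 for *Utf1* by its 2 brighter probe sets, and 0.19 for *Lin28a*. Probe sets of a gene share their RNA, so such agreement says nothing of the spread between cultures.

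The members were also set beside genes of like mean level, in 20 bins of about 910 genes. The robust SD of the differences was 0.30 in the bin of *Pou5f1*, *Sox2*, *Nanog* and *Sall4*, where 7.58%, 27.6%, 72.4% and 3.74% of the genes, respectively, had a lower difference. It was 0.53 in the bin of *Nr0b1* and *Lin28a*, where 0.33% and 1.98% were lower, and 0.50 in that of *Utf1*, where 11.6% were lower. In the bin of *Tcl1* it was 0.57 and 2.09% of the genes were higher. The distance from the median of the bin was 3.64 robust SDs for *Nr0b1*, 2.63 for *Tcl1*, 2.28 for *Lin28a* and 2.18 for *Sall4*, followed by *Pou5f1* (1.64), *Utf1* (1.22), *Sox2* (0.64) and *Nanog* (0.58). In this order *Sall4* stood beside *Lin28a*, and *Pou5f1* lay further out than *Utf1*, although its difference was smaller. Technical and real differences are not separated in such a spread.

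**Figure D2:**
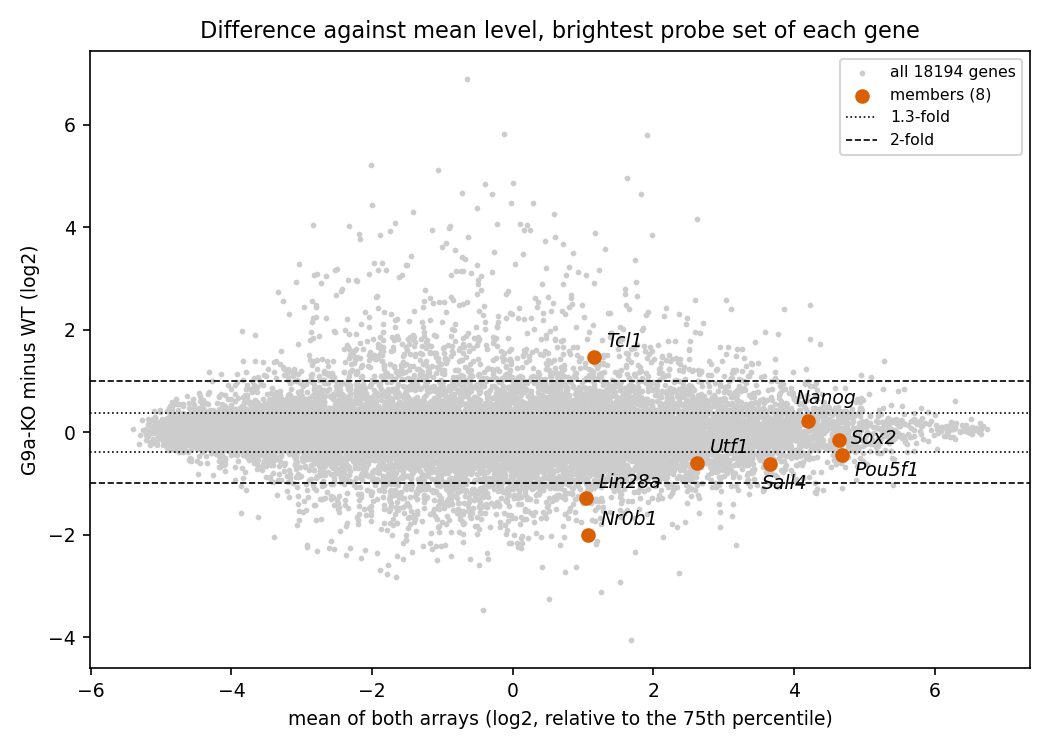
Difference between G9a-KO and WT (vertical axis, log2) against the mean of both arrays (horizontal axis, log2 relative to the 75th percentile), 1 point per gene for 18194 genes in grey, with the 8 members in orange and lines at 1.3-fold (dotted) and 2-fold (dashed). *Nr0b1* (-2.02) and *Lin28a* (-1.29) lie below the lower dashed line, *Tcl1* (1.46) above the upper one, and *Sox2* and *Nanog* between the dotted lines.

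The direction of each member did not depend on how the arrays were brought to scale. With the deposited values, median centring, quantile normalization or lowess correction in place of the 75th percentile shift, *Nr0b1* ranged from -2.12 to -1.99, *Tcl1* from 1.36 to 1.49 and *Nanog* from 0.11 to 0.21. *Pou5f1*, which lay nearest to the 1.3-fold threshold among the genes past it, ranged from -0.56 to -0.46.

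**Figure D3:**
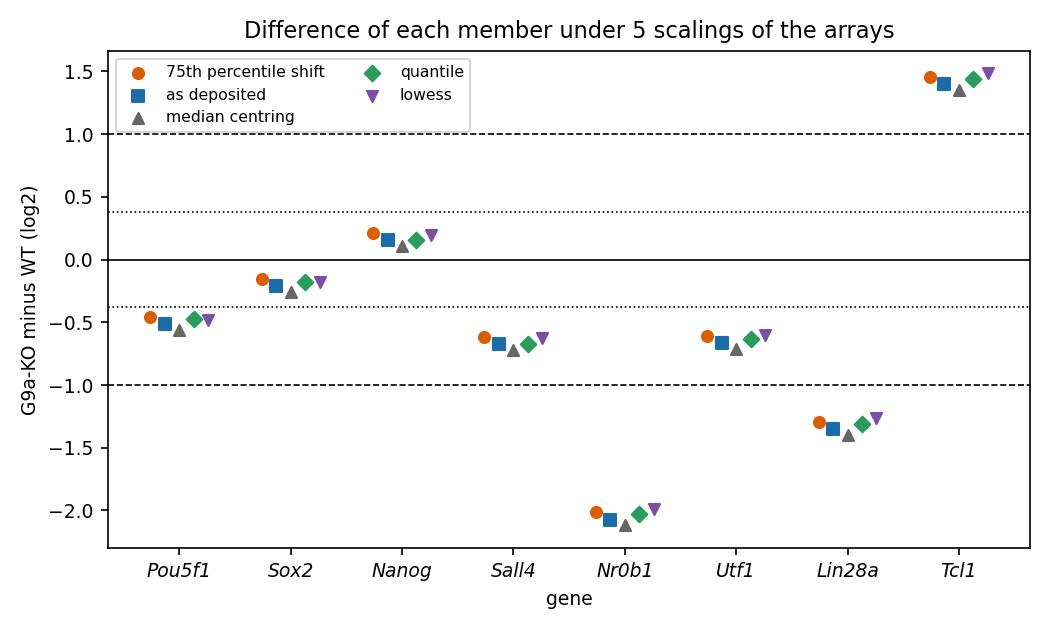
Difference between G9a-KO and WT (vertical axis, log2) of the 8 members (horizontal axis) under 5 scalings of the arrays, 1 symbol per scaling, with lines at 1.3-fold (dotted) and 2-fold (dashed). Each gene keeps its side of 0 and of both thresholds under all 5.

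The relatives of these genes in the genome were examined next, because members of a family can stand in for each other. Of 23 paralogues listed, 20 were measured. By the brightest probe set, 4 were over 1.3-fold lower and 3 higher, against 17.2% and 17.4% of all genes, and the median was 0.043. *Sall1*, a zinc finger relative of *Sall4*, stood at 2.32 in WT and 1.29 in G9a-KO (2.03-fold lower), but its other bright probe set differed by only -0.15. *Sall2* was 2.91-fold lower, from -1.24 in WT to -2.78, below the median in the knockout. *Pou3f1*, the gene of the POU factor OCT6, differed by -1.01 by one probe set and by 0.25 by the other, so its direction is unsettled. *Pou6f1* was dim, at -1.82 and -2.42. The Tcl1b genes, tandem relatives of *Tcl1*, differed little, at 0.16 (*Tcl1b1*), 0.11 (*Tcl1b3*) and 0.074 (*Tcl1b4*), and were named after their values were seen. As these genes resemble each other in sequence, signals may be shared between their probe sets. *Lin28b*, the paralogue of *Lin28a*, lay below the median of each array (-3.56 and -2.81). It is 1 of the 3 counted as higher, but its size is not exact, and it was named after its values were seen.

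Genes listed as partners of OCT4, NANOG and SALL4 went both ways. Of 28 listed, 26 were measured and each lay above the median on both arrays. Of these, 8 were over 1.3-fold lower and 2 higher, beside 17.2% and 17.4% of all genes, with a median of -0.21. Since well detected genes pass more often, the shares of all genes may be too low a measure for such a list. The share of well detected genes by the brightest probe set was not computed, here or for the lists below. The highest differences were those of *Klf5*, a Krüppel-like factor of naive ESCs, at 1.55 in WT and 2.93 in G9a-KO (1.38, and 1.49 by its other probe set), and of *Tfcp2l1*, a transcription factor of the same state, at 1.17 and 2.31 (1.14). The lowest were those of *L1td1*, which encodes an RNA-binding protein that associates with LIN28, at 4.97 and 3.85 (-1.13), and of *Zfp281*, a zinc finger partner of NANOG, at 2.35 and 1.38 (-0.97, and -0.46 by its other probe set).

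Textbook targets of the OCT4-SOX2 pair did not follow a single direction. Of 7 measured, 3 were over 1.3-fold lower (17.2% of all genes) and 2 higher (17.4%), with a median of -0.23. *Lefty1*, a Nodal antagonist, was lowest, at 2.99 in WT and 0.067 in G9a-KO (7.59-fold lower). *Zfp42*, which encodes the ESC marker REX1, stood at 4.78 and 3.99 (-0.79), and *Jarid2*, a partner of Polycomb repressive complex 2, at 4.36 and 3.71 (-0.65). *Fbxo15* stood at 4.70 and 5.44 (0.74). *Fgf4*, which carries one of the best studied joint elements, differed by 0.079 by its brightest probe set and was named after its values were seen, and its other bright probe sets differed by 0.079 and 1.43.

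For *Lin28a*, genes of the LIN28 and let-7 axis were counted. Of 9 measured, 3 were over 1.3-fold lower (17.2% of all genes) and 3 higher (17.4%), the dim *Lin28b* among the latter, with a median of 0.14. *Hmga2*, a chromatin protein gene whose transcript is a classical target of let-7, was 4.25-fold higher in G9a-KO, at 0.093 in WT and 2.18 in the knockout, and its other bright probe sets differed by 2.27 and 2.37. In contrast, *Trim71*, a let-7 target that encodes a stem cell ubiquitin ligase, was lower by both probe sets (-1.13 and -0.88). *Mycn*, a MYC family gene, differed by -1.13, and by -0.61 and -0.0052 by its other probe sets. *Igf2bp1*, which encodes an RNA-binding protein, differed by -0.92, with other probe sets between -0.76 and -0.017. Mature microRNAs are not measured by this array.

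For *Tcl1*, genes of the AKT pathway were counted in the same way. Of 6 measured, 2 were over 1.3-fold lower (17.2% of all genes) and 1 higher (17.4%), with a median of -0.15. *Eras*, which encodes a constitutively active RAS protein of ESCs that stimulates the same kinase pathway, stood at 3.87 in WT and 2.02 in G9a-KO (3.60-fold lower). *Pik3ca*, the gene of a catalytic subunit of PI3-kinase, was 1.95-fold lower, and its other bright probe sets differed by -1.49 to -0.58. *Mtcp1*, the closest relative of *Tcl1* outside the Tcl1b cluster, was 1.33-fold higher (0.41, and 0.49 by its other probe set). *Akt1* differed by -0.20, with other probe sets at 0.033 and 0.30.

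**Figure D4:**
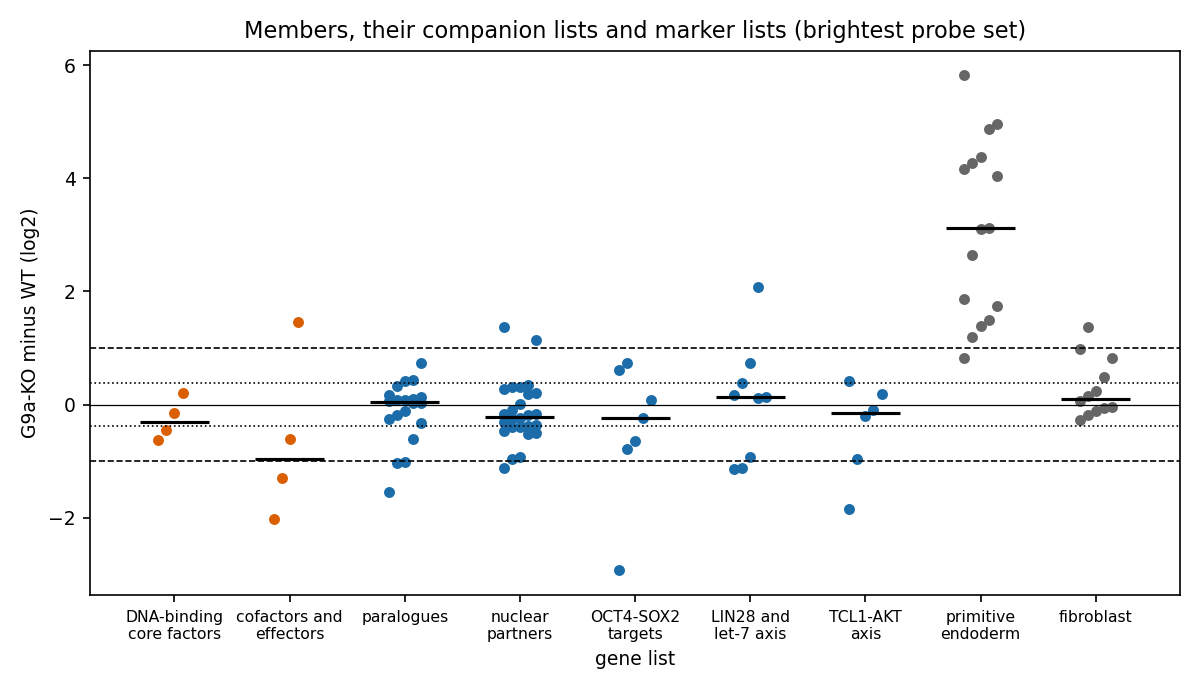
Difference between G9a-KO and WT (vertical axis, log2) of the members in 2 groups (orange), of 5 companion lists (blue) and of markers of primitive endoderm and fibroblasts (grey), 1 point per measured gene, with the median of each list as a black bar and lines at 1.3-fold (dotted) and 2-fold (dashed). The core factors lie between -0.62 and 0.21, the cofactors and effectors between -2.02 and 1.46, and all 16 endoderm markers above the upper dotted line.

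Markers of ESCs and of other cell types were counted as well. The counts of markers below, by the brightest probe set at 1.3-fold, stand beside 17.2% of all genes lower and 17.4% higher. Each of 10 ESC markers, 5 of which are members of the group, lay above the median on both arrays. Of the 10, 4 were over 1.3-fold lower in G9a-KO (*Zfp42*, *Sall4*, *Utf1* and *Pou5f1*) and 1 was higher (*Dppa5a*, at 5.98 in WT and 6.59 in the knockout), with a median of -0.20. Their summed level, which the brightest probe sets dominate, was 7.96 in WT and 7.95 in G9a-KO. On the same arrays the markers of primitive endoderm were higher in the knockout in 16 of 16 cases, with a median of 3.12 and a summed level of 2.46 in WT and 6.34 in G9a-KO. The marker lists were chosen with earlier results of these data known, so this count is no independent check. *Cubn*, *Col4a1*, *Col4a2* and *Dab2* led, with differences of 5.82, 4.95, 4.87 and 4.37, and those of *Cubn*, *Col4a2* and *Dab2* are not exact because the genes lay below the median in WT. Of 12 fibroblast markers 4 were higher and 0 lower, with a summed level of 0.94 in WT and 1.35 in the knockout. Among those above the median on at least 1 array, *Col6a3* (1.37) and *Col1a2* (0.83) had the highest differences. *Twist1* followed at 0.48, and *Pdgfrb* went the other way, at -0.27. The differences of *Col6a3* and *Twist1* are not exact because both genes lay just below the median in WT. *Col1a1* and *Col3a1*, collagen genes of the fibroblast list that were named after their values were seen, lay below the median on both arrays. Trophoblast markers were higher in 6 of 8 cases and lower in 1, with a summed level of 3.54 in WT and 3.76 in the knockout. Among the higher ones were *Krt18* (1.17) and *Elf5*, whose 1.39 is not exact because it lay below the median in WT. *Tfap2c* was the lower one (-0.55), and *Cdx2*, below the median on both arrays, differed by -0.082. Both *Tfap2c* and *Cdx2* were named after their values were seen. The part of these cell types in the differences of the pluripotency genes was not tested.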

How the data were processed

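Total RNA (200 ng) of 1 WT and 1 G9a-KO culture was measured on the Affymetrix Mouse Genome 430 2.0 Array. The authors deposited log2 values of 45101 probe sets, made with RMA in R 3.2.1, as the submitters' processing notes say. RMA corrects the background, equalises the arrays and summarises the probes, so a difference in total RNA per cell cannot be seen. Following the methods of the study, the 75th percentile of each array (7.37 in WT, 7.31 in G9a-KO, as deposited) was subtracted and 1.3-fold by at least 1 probe set was taken as the threshold, with 2-fold added. Probe sets were named from the platform annotation (34958 with 1 symbol, 932 with several, 9211 unnamed here), and 34754 matched RefSeq (GRCm38.p6) by gene ID. A gene is valued by its brightest probe set. The genes named are all 8 members, *Ehmt2* and, per list, up to 4 genes with the largest absolute difference that exceed the median on either array. Exceptions are marked. Members and lists were chosen with earlier results of these data known. Tools were Python 3.11.15, pandas 2.3.3 and statsmodels 0.14.6 (lowess, span 0.3), and the steps were tested on simulated data. With 1 array per group no test was possible.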

Additional observations from a re-analysis of the deposited data

How the results depend on the processing

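The 8 single differences and the median of the members kept their direction under no shift, median centring, quantile normalization, lowess, the mean over probe sets, the most divergent probe set, removal of _s_at and _x_at probe sets, and removal of dim probe sets. Median centring lowers every difference by 0.10, and the median of the members ranged from -0.64 to -0.50. Values moved by more than the SD of the spiked-in controls in 1 case, *Lin28a*, which became -1.48 by its most divergent probe set. The number of members lower was 5 under each alternative except the 2-fold threshold, where it was 2, and the number higher was 1 throughout. Genes with 1 probe set (*Pou5f1*, *Sox2*, *Nanog*, *Nr0b1*, *Tcl1*) could not be examined by other rules for the probe set. No paired analysis was possible because each group holds 1 array, and no array could be left out for the same reason. Signal near background limits the third probe set of *Utf1*.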

Other observations

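Genes next to the members on the chromosome were examined, taking the 3 nearest measured genes on each side in the order of the RefSeq table. Of these 48 genes, 8 were higher in the knockout past 1.3-fold, 10 were lower and 30 were within the threshold, with a median of -0.020. These shares are near those over all genes by the brightest probe set (17.4% higher and 17.2% lower). The genes beside *Nanog* on chromosome 6 include others of the pluripotent state. *Dppa3*, which encodes a maternal factor also called STELLA, stood at 2.47 in WT and 1.60 in G9a-KO (-0.87), and *Gdf3*, a TGF-beta family ligand, at 2.79 and 1.89 (-0.90, and -1.37 by its other bright probe set), and *Slc2a3*, a glucose transporter gene on the other side of *Nanog*, differed by 0.22, with other bright probe sets from 0.20 to 1.80.

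Beside *Lin28a* on chromosome 4, *Arid1a*, a subunit of the BAF chromatin remodelling complex, stood at 3.16 in WT and 1.91 in G9a-KO (-1.25, and -0.81 by its other bright probe set). *Dhdds*, which lies between them in this order, differed by 0.29 and by -0.19 by its other bright probe set. Beside *Utf1* on chromosome 7, *Kndc1* differed by 1.33, opposite to *Utf1*, from near the median in WT (-2.18). *Pou5f1* and the targeted gene *Ehmt2* lie on the same chromosome, 17. Of the 6 genes beside *Pou5f1*, 3 were lower past 1.3-fold and 1 was higher, with a median of -0.40, beside 17.2% and 17.4% of all genes. Among the lower ones, *H2-Q2* lay below the median on both arrays (-3.83 in WT and -4.52 in G9a-KO), so its difference is not exact. The higher one was *Psors1c2* (1.23), while *H2-Q10* and *Tcf19*, the nearest on each side, differed by -0.70 and -0.46. *D430019H16Rik* beside *Tcl1* differed by -1.11 and *Dcaf8l* beside *Nr0b1*, below the median on both arrays, by 1.00. The 48 genes were taken by position, and those named here were picked after their values were seen.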
